A study of Rattus norvegicus with 12 samples.

Results

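The genes described here are 10 genes of the unfolded protein response, taken from a fixed list of names: the endoplasmic reticulum chaperones Hspa5, Hsp90b1, Calr and Pdia3, the factors Creld2, Dnajb9 and Dnajb11, and the transcription factors Xbp1, Atf4 and Ddit3. Every array probe that the platform annotation assigns to them was taken, whatever its values, but the list was chosen with earlier results of these data known. Of the 10 genes, 9 had a probe, and these 9 had 10 probes among the 21946 of the array, which the annotation assigns to 12925 named genes in all. Hsp90b1 had no assigned probe and is named only. A second probe for Dnajb11 lay below background on all 12 arrays and entered no test, so Dnajb11 is given by the other probe, and its 2 probes disagreed.

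The study measured messenger RNA of rat origin on 12 Illumina bead arrays of 1 chip. Of these, 3 arrays held RNA of exosomes from ASML cells with a knockdown of CD44 variant isoforms (kd exosomes) and 3 held RNA of exosomes from unmodified ASML cells (wt exosomes). ASML is a metastasizing rat pancreatic adenocarcinoma line, and exosomes are small vesicles that cells release. The other 6 arrays held RNA of B12 cells, a rat lymph node stroma line, with 2 arrays each for cells given kd exosomes for 24 h, cells given wt exosomes for 24 h and untreated cells. The file headers give 24 h for the untreated cells as well. The question was what exosome uptake changes in the stroma, and whether CD44v in the exosome donor matters. The labels state neither the exosome dose nor how the knockdown was made, nor whether it is 1 clone. Nothing in them says that replicates came from separate cultures, so the p-values measure the spread between these arrays. That spread may be technical, but on the B12 arrays it includes a gap between the replicate numbers, described below.

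The endoplasmic reticulum folds secreted and membrane proteins, and when unfolded protein builds up there, several sensors signal to the nucleus. Ire1 (gene Ern1) splices the messenger of Xbp1, Atf6 is cut to release a transcription factor, and Perk (gene Eif2ak3) slows protein synthesis while favouring translation of Atf4, which in turn raises Ddit3 (CHOP). Xbp1 and Atf6 are known to raise chaperones and folding enzymes, whereas Atf4 and Ddit3 are known for amino acid and stress genes and, when stress lasts, for cell death. An array probe of this kind reads the amount of a messenger, and neither the splicing of Xbp1 nor the cleavage of Atf6 was measured.

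The promoters were read first, because the genes that went together in B12 cells and those that did not can be set beside their upstream sequence. RefSeq's promoter table (rat build GRCr8), with windows of 250 bases before to 50 bases after each start, held 9 of the 10 genes, all but Pdia3. The endoplasmic reticulum stress element, ERSE, was searched on both strands as CCAAT and CCACG with 9 bases between them. It lay in the windows of Hspa5, Hsp90b1 (at 2 places), Calr, Xbp1 and Creld2, and in 22 of all 33469 windows (0.0657%). The related ERSE-II, searched as ATTGG and CCACG with 1 base between them, lay in Dnajb11 and in 17 of all windows (0.0508%). TGACGTG, the core of a further site of this response, lay in Hspa5 and in 605 windows (1.81%), and TGATG, any base and AA, the core of an Atf4 site, lay in none of the 9 and in 1332 windows (3.98%). None of the 4 motifs was found in the windows of Atf4, Ddit3 and Dnajb9, which says only that these letters are not in these windows. The search counted exact matches only, so a site that differs in any fixed base was missed. The motifs can overlap, a match is not evidence of binding, and the windows of Creld2 and Dnajb9 begin at a start other than the outermost one of the gene.

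The sequences show the element in the 4 measured genes that hold ERSE and in Dnajb11, with Ddit3 as a gene without an exact match. The Ddit3 sequence does hold CGTGC and ATTGG with 9 bases between them. That is a near match to ERSE on the opposite strand, which the search did not count. Each runs 5′ to 3′ on the gene's strand from 250 bases before the start to the first transcribed base, and capitals mark ERSE, ERSE-II or, in Hspa5 further upstream, TGACGTG. Hspa5 lies at chr3:38452766-38453016, plus strand, Calr at chr19:40213117-40213367, plus strand and Xbp1 at chr14:84604373-84604623, plus strand. Creld2 lies at chr7:121789134-121789384, plus strand, Dnajb11 at chr11:91672800-91673050, minus strand and Ddit3 at chr7:65001445-65001695, plus strand (GRCr8, RefSeq).
Hspa5: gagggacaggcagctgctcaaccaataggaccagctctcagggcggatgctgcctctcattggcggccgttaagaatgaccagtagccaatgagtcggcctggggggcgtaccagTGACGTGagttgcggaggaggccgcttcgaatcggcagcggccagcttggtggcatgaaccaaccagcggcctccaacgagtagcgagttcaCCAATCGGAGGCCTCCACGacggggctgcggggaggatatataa
Calr: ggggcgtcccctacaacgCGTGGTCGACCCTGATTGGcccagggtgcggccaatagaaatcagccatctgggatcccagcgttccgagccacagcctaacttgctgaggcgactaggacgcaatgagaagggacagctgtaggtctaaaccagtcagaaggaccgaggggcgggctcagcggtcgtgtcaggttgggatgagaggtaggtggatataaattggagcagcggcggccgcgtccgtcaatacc
Xbp1: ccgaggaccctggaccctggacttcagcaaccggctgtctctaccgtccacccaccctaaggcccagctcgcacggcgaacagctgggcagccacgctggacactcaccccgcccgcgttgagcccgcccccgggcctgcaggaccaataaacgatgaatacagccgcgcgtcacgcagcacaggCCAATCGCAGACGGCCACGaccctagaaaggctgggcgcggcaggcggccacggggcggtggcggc
Creld2: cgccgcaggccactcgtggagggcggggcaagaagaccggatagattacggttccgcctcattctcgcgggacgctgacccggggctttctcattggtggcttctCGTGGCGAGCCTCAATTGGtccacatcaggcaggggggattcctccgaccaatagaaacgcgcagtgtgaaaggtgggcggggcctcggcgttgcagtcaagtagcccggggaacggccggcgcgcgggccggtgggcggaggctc
Dnajb11: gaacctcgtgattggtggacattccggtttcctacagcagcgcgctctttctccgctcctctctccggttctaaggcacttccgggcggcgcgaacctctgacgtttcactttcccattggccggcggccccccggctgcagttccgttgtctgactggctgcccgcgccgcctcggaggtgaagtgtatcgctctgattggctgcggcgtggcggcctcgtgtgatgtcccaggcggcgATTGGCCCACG
Ddit3: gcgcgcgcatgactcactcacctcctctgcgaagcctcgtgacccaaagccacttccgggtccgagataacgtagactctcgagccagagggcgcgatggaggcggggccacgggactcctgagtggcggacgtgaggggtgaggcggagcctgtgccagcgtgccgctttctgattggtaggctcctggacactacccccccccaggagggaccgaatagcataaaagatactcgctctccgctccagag

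ERSE lay close to the start in Hspa5, from 43 to 25 bases upstream, and in Xbp1, from 65 to 47. It lay farther off and on the opposite strand in Creld2, from 145 to 127, and in Calr, from 232 to 214 bases upstream. In Dnajb11 ERSE-II covered the 10 bases before the start and the first transcribed base. Of 12 further chaperone and folding genes with a window, 3 held ERSE (Canx, Dnajc3 and Ero1b), as did 1 of 10 degradation genes. It lay in 0 of 15 genes listed as Atf4 and Ddit3 targets, of which 3 held the Atf4 site. Nor was it in the listed translocation genes (0 of 9), sensor genes (0 of 5) or heat shock genes (0 of 12). Whether these elements bear on the differences below was not tested.

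Exosome RNA gave weaker arrays than cell RNA. Signal over background averaged 100.1 to 299 for kd exosomes, 108 to 173 for wt exosomes and 505 to 588 for B12 cells, and 42.8% to 54.3% of probes were detected per array. The third kd exosome array (kd replicate 3) was unlike its 2 fellows, correlating at 0.834 and 0.847 with them across probes and at 0.949 to 0.971 with the wt exosome arrays. It was also the weakest array, at a mean signal of 100.1, against 299 and 244 on kd replicates 1 and 2. Cd44, the targeted gene, had 19.4%, 18.2% and 17.3% of the mean signal per array in kd exosomes, against 57.1%, 59.6% and 42.9% in wt exosomes. The place of its probe among the variant exons was not used here.

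The B12 arrays fell into their 2 replicate numbers rather than their treatments. The stroma markers Pdgfra and Cxcl12 had signals of 2694 to 2905 and 29879 to 35258 on the arrays of number 2, in all 3 groups, but at most 16.2 and 305 on those of number 1. The keratins Krt8 and Krt19 had 11961 to 15298 and 3052 to 14920 on number 1, against 2042 to 3182 and 720 to 1008 on number 2, but Spint2 went the other way, with 2393 to 2925 on number 1 and 3011 to 3476 on number 2, while Epcam, the defining epithelial marker, was not detected on any B12 array. Thy1, another stroma marker, was likewise not detected on any of them. The summed signal of 11 stroma markers was 32676 and 102564 with kd exosomes, 32121 and 95012 with wt exosomes and 16342 and 94191 in untreated cells, for numbers 1 and 2 in each. That of 10 epithelial markers was 18273 and 6275, 21813 and 7303, and 33591 and 7043 in the same order. Of 8 stroma markers detected on all arrays of at least 1 number, 5 were lower on every array of number 1 than on any of number 2 (Ccl19, Col1a1, Col1a2, Cxcl12 and Pdgfra), 0 were higher, and Col3a1, Sparc and Vim overlapped. Col3a1 was higher on number 1 with kd exosomes (6952 against 3535) and wt exosomes (6971 against 2872), but lower untreated (1315 against 4679). Pdpn, outside that count, was detected in B12 cells only on the treated arrays of number 1, at 78.3 with kd and 41.7 with wt exosomes. Of 4 such epithelial markers, Cdh1, Krt8 and Krt19 were higher on number 1 and Spint2 lower. Among endothelial markers, Tek had 274 to 506 on number 1 and 16.3 to 39.7 on number 2, Prox1 overlapped and Cdh5 was not detected. The labels call all these arrays B12 cells, and whether both numbers hold the same line was not tested. Because the numbers differed in this way, each change in B12 cells is given within both numbers. The main fits leave the number out, so their standard errors include this gap. For Creld2 after wt exosomes the standard error was 0.463, against 0.245 with the number as a block.

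Over the 5 groups, the chaperone genes and Xbp1 had more signal in B12 cells than in exosomes, whereas Ddit3 was highest in exosomes and Atf4 differed little. Levels are log2 values after joint normalization of all 12 arrays, and each gene is compared only with itself. Of the 9 genes, 9 passed the filter of detection on all arrays of at least 1 group in every fit. They were detected on all 12 arrays, except Creld2 and Dnajb9 on kd exosome replicate 3. In wt exosomes set against untreated B12 cells, 6 of the 9 genes fell past limma's threshold (Benjamini-Hochberg adjusted p under 0.05) and 0 rose, with 17.1% of all 12231 probes lower and 18.2% higher past it. The members' median difference was −1.61, against 0.050 for all probes. RNA of the ASML cells themselves was not measured. A difference between the cell lines and one between vesicles and their cells therefore cannot be told apart here. Below, a gene that fell in wt exosomes was lower there than in untreated B12 cells.

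Hspa5 encodes BiP, the main Hsp70 chaperone of the endoplasmic reticulum and a brake on the stress sensors. Its levels were 10.27, 9.77 and 9.99 in wt exosomes, against 12.23 and 12.90 in untreated B12 cells, so the groups lay far apart, and it fell by 2.55 ± 0.34 (SE; limma adjusted p = 0.000451). In the other groups it averaged 9.51 ± 0.60 in kd exosomes (SD, n = 3), 13.21 ± 0.01 in B12 cells with kd exosomes and 13.23 ± 0.49 in those with wt exosomes (SD, n = 2 each). Calr encodes calreticulin, a lectin chaperone that holds glycoproteins. It had 11.50, 10.82 and 11.18 in wt exosomes and 12.80 and 13.46 in untreated B12 cells, without overlap, and fell by 1.97 ± 0.37 (limma adjusted p = 0.0029). Its other means were 10.42 ± 0.73 in kd exosomes, 13.42 ± 0.04 with kd exosomes and 13.44 ± 0.09 with wt exosomes. Pdia3, a disulfide isomerase that works with calreticulin, stood at 7.16, 5.89 and 5.13 in wt exosomes, more spread than in untreated B12 cells at 8.36 and 8.60. It still fell by 2.42 ± 0.59 (limma adjusted p = 0.0108). Its signal in wt exosomes was only 12.6 to 33.7 over background, so the size of this difference is uncertain. The same holds for 2 genes given below, Dnajb9 (10.6 to 28.7) and Creld2 (19.4 to 30.2). Pdia3 averaged 5.78 ± 0.84 in kd exosomes, 8.98 ± 0.05 in B12 cells with kd exosomes and 8.82 ± 0.25 in those with wt exosomes.

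Dnajb9 and Dnajb11 are J-domain helpers of BiP, the first also a brake on Ire1. Dnajb9 fell by 2.35 ± 0.57 in wt exosomes (5.26, 6.25 and 4.99, against 7.83 and 7.88 in untreated B12 cells; limma adjusted p = 0.0106). Dnajb11 fell by 1.61 ± 0.28 (6.68, 7.12 and 7.13, against 8.36 and 8.81; limma adjusted p = 0.00177). Neither gene's groups overlapped. Dnajb9 averaged 5.88 ± 1.05 in kd exosomes, 8.14 ± 0.19 in B12 cells with kd exosomes and 8.33 ± 0.16 in those with wt exosomes, and Dnajb11 averaged 7.34 ± 0.15, 8.99 ± 0.17 and 9.17 ± 0.35 in the same groups. Creld2, a secreted folding factor that is released under stress, had 6.10, 6.33 and 5.72 in wt exosomes and 6.77 and 7.46 in untreated B12 cells. Its difference of −1.06 ± 0.49 did not pass (limma adjusted p = 0.109), although the groups did not overlap. Creld2 averaged 5.67 ± 0.75 in kd exosomes, 7.80 ± 0.14 in B12 cells with kd exosomes and 8.02 ± 0.64 in those with wt exosomes.

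Among the transcription factors, Xbp1 fell by 1.43 ± 0.18 in wt exosomes (8.70, 8.46 and 8.63, against 9.92 and 10.12 in untreated B12 cells; limma adjusted p = 0.000307). For Xbp1 most groups separated: kd exosomes, at 9.05 ± 0.12, stood above wt exosomes and below untreated B12 cells without overlap, and B12 cells with kd and wt exosomes, at 10.43 ± 0.04 and 10.50 ± 0.14, stood above untreated ones. Atf4 went the other way at 11.22, 11.27 and 11.06 in wt exosomes, against 10.42 and 11.10 in untreated B12 cells, and these groups overlapped. Its difference was 0.42 ± 0.23 (limma adjusted p = 0.178), and its 5 group means, 10.41 to 11.18, overlapped between every pair of neighbours in order. Ddit3 had 10.72, 10.65 and 10.64 in wt exosomes, against 10.43 and 9.14 in untreated B12 cells, all 3 exosome arrays above both cell arrays. The difference of 0.88 ± 0.33 fell short of the threshold (limma adjusted p = 0.0607). Kd exosomes, at 10.96 ± 0.30, stood above wt exosomes, and B12 cells averaged 9.55 ± 0.14 with kd exosomes and 9.45 ± 0.33 with wt exosomes.

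**Figure D1:**
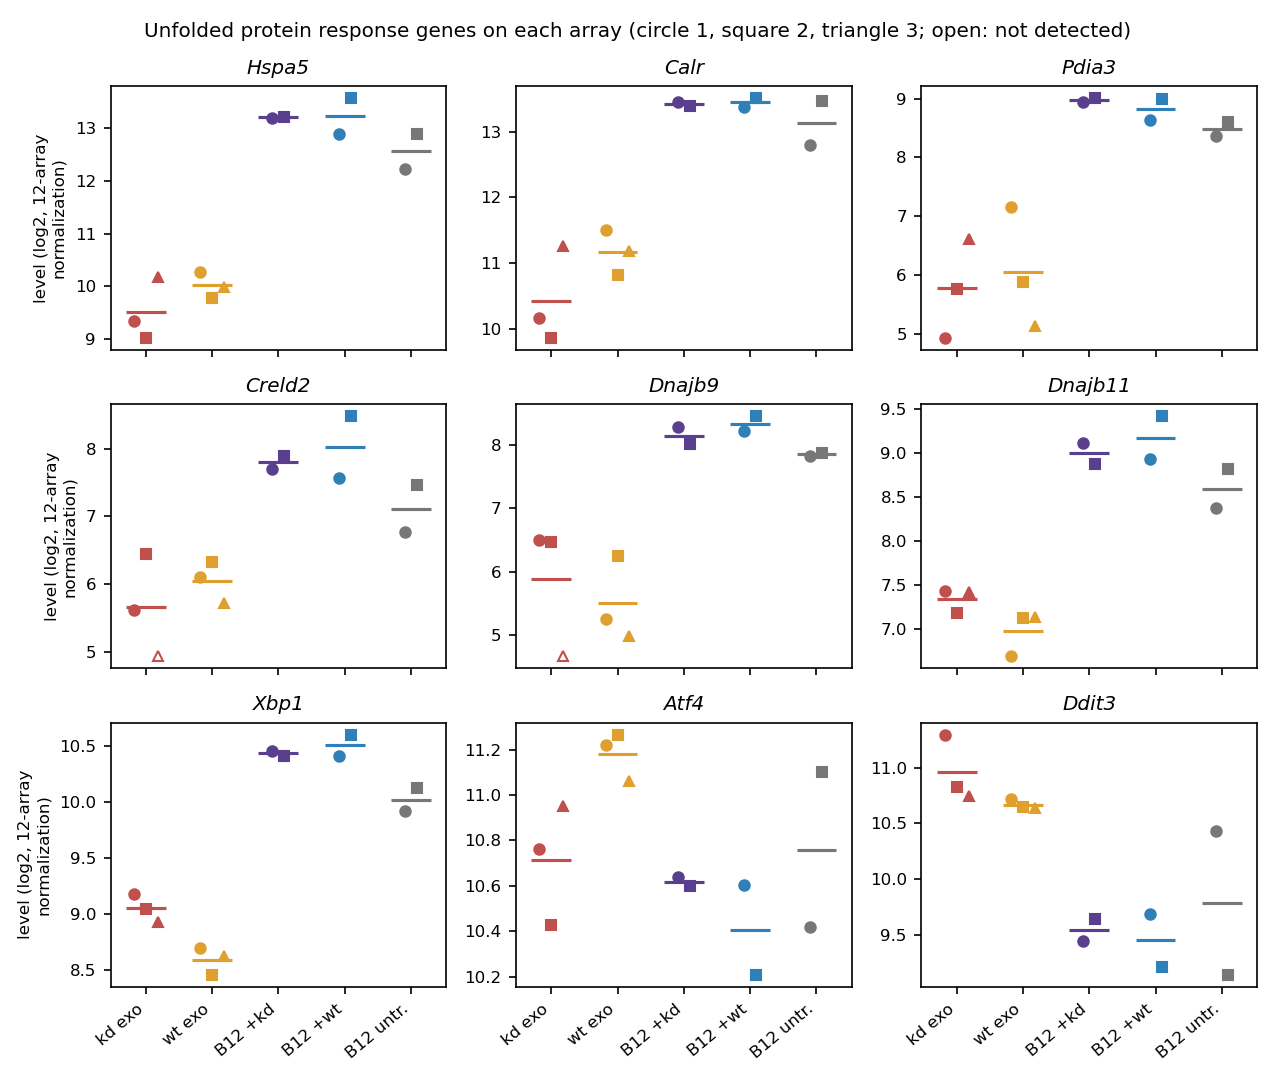
Levels of the 9 measured genes (log2 after joint normalization of 12 arrays) in the 5 groups; each point is 1 array, its shape gives the replicate number, bars are group means and open points were not detected. The chaperone genes and Xbp1 sit lower in both exosome groups than in B12 cells, Ddit3 sits higher, and the 2 untreated arrays of Ddit3, at 10.43 and 9.14, lie far apart.

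These differences lean on how 2 kinds of RNA preparation with unequal signal are brought to 1 scale. Under median scaling the median of all probes shifted to −0.98, and Atf4 and Ddit3 turned to −1.24 and −0.98, below and level with that median, while the 6 called genes stayed lower at −3.15 to −4.03 and Creld2 passed at −2.34 (limma adjusted p = 0.00326), as the plot of wt exosomes against untreated B12 cells by scaling shows. Expressed relative to each array's mean, Ddit3 lay at 0.08 and Atf4 at −0.15. Leaving out an untreated array leaves 1, which is then assumed to vary like the other groups. Dnajb9 lay at −2.32 without number 1 and −2.26 without number 2, and Pdia3 at −2.25 without number 2, close to their values with both arrays but no longer past the threshold (limma adjusted p = 0.0547, 0.0591 and 0.0656).

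**Figure D2:**
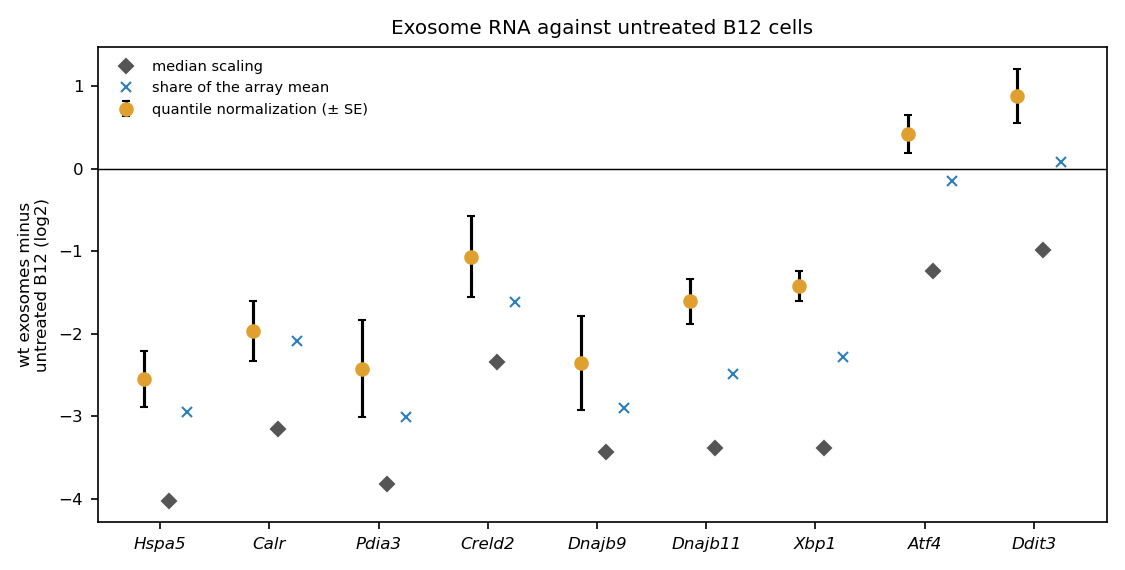
Difference between wt exosomes and untreated B12 cells (log2) for each gene under quantile normalization with its standard error, under median scaling and relative to each array's mean. Atf4 and Ddit3 lie above 0 only under quantile normalization, apart from Ddit3 relative to the mean at 0.08, and the other 7 genes lie below 0 under all 3.

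Other genes of the pathway stood in part with the chaperones in wt exosomes relative to untreated B12 cells. Counts past limma's adjusted threshold are given beside each list, where 17.1% of all probes were lower and 18.2% higher past it. Of 9 measured genes of endoplasmic reticulum degradation, all 9 lay lower and 7 of them passed (median −2.99), among them Herpud1, a scaffold of the degradation complex (−3.10 ± 0.32), the ligase Syvn1 (−3.13 ± 0.35), its adaptor Sel1l (−3.36 ± 0.46) and Selenos (−2.99 ± 0.40). Of 10 other chaperones and folding enzymes, 7 lay lower, 6 of them past the threshold, and 3 higher, with 0 past it (median −1.44), with the isomerases Pdia5 and Pdia4 at −2.92 ± 0.40 and −2.27 ± 0.33. Of 13 targets of Atf4 and Ddit3, 8 lay higher and 5 lower (median 0.57). Past the threshold 4 were lower, such as the amino acid transporter Slc7a5 (−3.92 ± 0.56), and 2 higher, the serine synthesis enzyme Phgdh (1.62 ± 0.39) and the factor Atf5 (2.47 ± 0.64). Of 8 cytosolic and mitochondrial heat shock genes, listed as a contrast, 5 lay higher and 3 lower (median 0.38), with 2 and 1 past the threshold. Of 6 sensors and their processing genes 2 lay higher and 4 lower (median −1.34), with 1 and 3 past it, Eif2ak3 among the lower (−2.46 ± 0.41). Of 5 translocation genes 4 lay lower and 1 higher (median −0.70), with 1 lower past it.

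In B12 cells, the chaperone genes and Xbp1 stood higher after 24 h with either kind of exosome, by 0.25 to 1.03 in log2, and Atf4 and Ddit3 stood lower on average but moved in opposite directions in the 2 replicate numbers. None of these differences passed limma's adjusted threshold, which called 0 of 11631 probes (0%) in either comparison. Creld2 had the largest difference, at 1.73-fold with kd exosomes and 2.04-fold with wt exosomes relative to untreated cells. After kd exosomes 7 of the 9 genes were higher and 2 lower, with a median of 0.40, against 0.0085 for all probes. After wt exosomes 7 were again higher and 2 lower, with a median of 0.46, against 0.014 for all probes. Both treatments were set against the same untreated arrays, so their likeness is not independent. In bulk RNA, fewer cells of a type and less RNA per cell cannot be told apart.

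The levels that follow are log2 values after normalization of the 6 B12 arrays, given for replicate numbers 1 and 2 in turn. Hspa5 had 13.96 and 13.98 in B12 cells with kd exosomes, 13.67 and 14.25 with wt exosomes, and 13.18 and 13.68 untreated. The kd arrays lay above both untreated arrays, and the lower wt array lay just below the higher untreated one. Within numbers 1 and 2 the difference was 0.78 and 0.30 after kd exosomes and 0.49 and 0.58 after wt exosomes, with means of 0.54 ± 0.27 and 0.53 ± 0.27 (SE). Calr had 14.17 and 14.13 with kd exosomes, 14.11 and 14.20 with wt exosomes, and 13.61 and 14.18 untreated. Only the untreated array of number 1 was low, so the groups overlapped. Calr differed by 0.56 and −0.05 after kd exosomes and by 0.50 and 0.02 after wt exosomes, and without untreated replicate 1 its mean difference turned to −0.03 and −0.02. Pdia3 had 10.12 and 10.19 with kd exosomes, 9.81 and 10.17 with wt exosomes, and 9.51 and 9.77 untreated. All 4 treated arrays lay above the untreated ones, and the mean differences were 0.51 ± 0.24 after kd exosomes and 0.35 ± 0.24 after wt exosomes.

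Creld2 had 8.80 and 9.01 with kd exosomes, 8.65 and 9.63 with wt exosomes, and 7.70 and 8.52 untreated. Every treated array lay above both untreated arrays, although these differed from each other by nearly as much as the groups (SD 0.58). Within numbers 1 and 2 Creld2 stood at 1.10 and 0.48 after kd exosomes (mean 0.79 ± 0.46) and at 0.94 and 1.11 after wt exosomes (mean 1.03 ± 0.46). In the authors' own normalized values these means were 0.44 and 0.59. Dnajb9 had 9.42 and 9.13 with kd exosomes, 9.36 and 9.61 with wt exosomes, and 8.94 and 8.99 untreated. The groups did not overlap, and the means were 0.32 ± 0.24 and 0.52 ± 0.24. Dnajb11 had 10.29 and 10.05 with kd exosomes, 10.10 and 10.58 with wt exosomes, and 9.51 and 9.98 untreated, again without overlap between treated and untreated arrays. It differed by 0.77 and 0.07 after kd exosomes (mean 0.42 ± 0.29) and by 0.59 and 0.60 after wt exosomes (mean 0.59 ± 0.29).

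Xbp1 had 11.59 and 11.54 with kd exosomes, 11.54 and 11.72 with wt exosomes, and 11.07 and 11.27 untreated. All treated arrays lay above all untreated ones, and Xbp1 had the smallest standard error of the 9 genes. It stood at 0.52 and 0.27 within numbers 1 and 2 after kd exosomes (mean 0.40 ± 0.18) and at 0.47 and 0.46 after wt exosomes (mean 0.46 ± 0.18). The wt difference had the only unadjusted limma p under 0.05 among the 9 genes in these 2 comparisons, 0.0490, with an adjusted p of 0.9997. Atf4 had 11.76 and 11.72 with kd exosomes, 11.73 and 11.35 with wt exosomes, and 11.55 and 12.18 untreated. The untreated arrays enclosed the treated arrays of kd exosomes, so the groups overlapped. Atf4 lay at 0.21 and −0.46 after kd exosomes and at 0.18 and −0.83 after wt exosomes. Ddit3 had 10.61 and 10.80 with kd exosomes, 10.84 and 10.39 with wt exosomes, and 11.56 and 10.32 untreated, where number 1 was the highest of all 6 arrays and number 2 the lowest. It lay at −0.96 and 0.48 after kd exosomes and at −0.72 and 0.07 after wt exosomes, so both Atf4 and Ddit3 rest on which untreated array is used, and their means of −0.12 to −0.33 describe neither number.

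**Figure D3:**
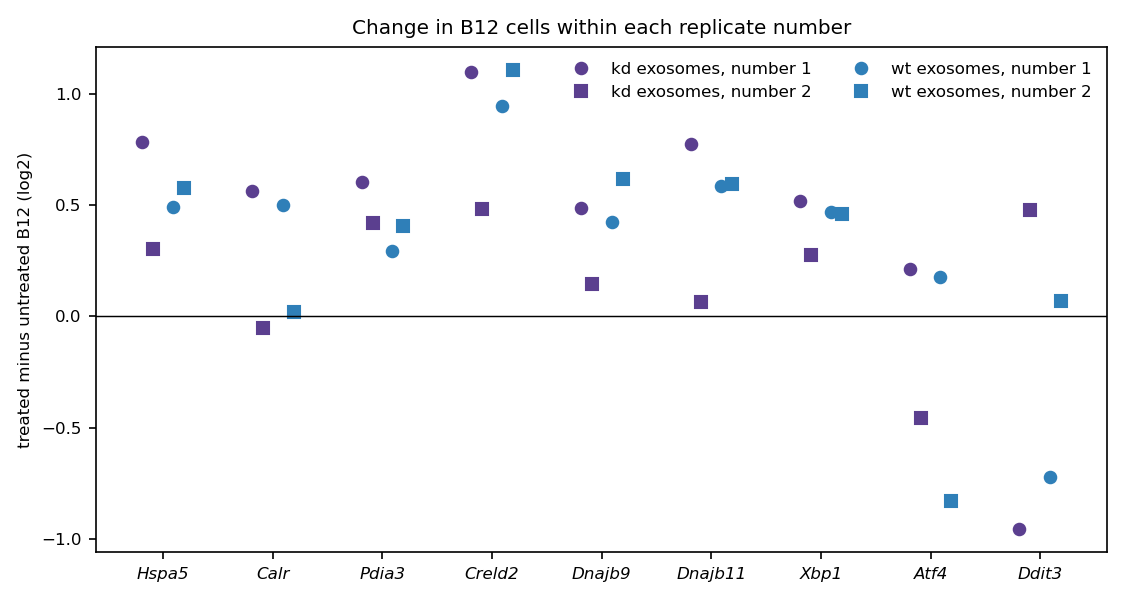
Difference between treated and untreated B12 cells (log2) within each replicate number; purple points are kd exosomes and blue points wt exosomes, circles are number 1 and squares number 2. For 6 genes all 4 points lie above 0, Calr has 1 point at −0.05, and Atf4 and Ddit3 have opposite signs in the 2 numbers.

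Counted over the members, 6 of 9 genes had all kd arrays above all untreated arrays (Hspa5, Pdia3, Creld2, Dnajb9, Dnajb11 and Xbp1), where 12% of all probes did. For wt exosomes the count was 5 of 9 (the same genes without Hspa5), where 12.5% did. Higher within both numbers were 6 of 9 genes after kd exosomes and 7 of 9 after wt exosomes, against 25.2% and 27.6% of all probes. The members are known to act together and are not independent of one another, and these shares describe them only. Because the members were chosen with earlier results of these data known, the counts here are no test of them. With the replicate number as a block, limma again called 0 probes, but 4 of the 9 genes had an unadjusted p under 0.05 after kd exosomes (Hspa5, Creld2, Pdia3 and Xbp1) and 5 after wt exosomes (Creld2, Hspa5, Xbp1, Dnajb11 and Dnajb9), against 2.82% and 2.36% of all probes called higher at that level. Without the block these counts were 0 and 1, against 1.23% and 1.07%. No member was lower at that level, where 2.95% and 3.22% of probes were with the block and 1.22% and 1.74% without it. The lowest adjusted p among them with the block was 0.722, that of Creld2 after wt exosomes.

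Marker sums moved with the treatments as well. The 4 proliferation markers Ccnb2, Aspm, Plk1 and Mki67, all detected on every B12 array, summed to 2889 and 3234 with kd exosomes, 1983 and 1139 with wt exosomes, and 4825 and 5063 in untreated cells. Within number 1 the stroma sum was 32676 with kd exosomes, 32121 with wt exosomes and 16342 untreated, while within number 2 it differed little. Markers of secretory cells, which carry much endoplasmic reticulum, summed to 881 and 537, 954 and 619, and 1120 and 718 in the same order, with Mzb1 not detected in any group. Most of that sum was Sdc1, at 837 and 492, 899 and 590, and 1074 and 684, so it follows 1 gene rather than a cell type. Of 6 leukocyte markers, Ptprc and Cd3e were not detected on any array, while Cd79b and Itgam were detected on some B12 arrays. Cd68 was detected on every B12 array, at 218 and 94, 423 and 521, and 829 and 131 in the same order. The leukocyte sum was 224 and 122, 448 and 553, and 871 and 187. The part of these marker differences in the results was not tested.

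Beyond the 9 genes, the pattern was followed through 6 lists. Of 10 other chaperones and folding enzymes, 10 stood higher after kd exosomes (median 0.27) and 8 after wt exosomes (median 0.26), and 0 were called. The isomerase Pdia5 lay at 0.81 ± 0.32 and 0.77 ± 0.32, Manf, a secreted factor of the stressed endoplasmic reticulum, at 0.65 ± 0.33 and 0.62 ± 0.33, and the isomerase P4hb at 0.32 ± 0.18 and 0.39 ± 0.18, for kd and wt exosomes in turn (limma adjusted p at least 0.9997). All 4 treated arrays lay above the untreated ones for Pdia5 and P4hb. Of 5 genes of protein translocation, 4 stood higher after kd exosomes (median 0.24) and 5 after wt exosomes (median 0.37), such as Ssr2 of the translocon at 0.30 ± 0.26 and 0.40 ± 0.26. Degradation genes had medians of 0.23 and 0.09 over 9 genes, with Vcp at 0.17 ± 0.15 and Herpud1 below 0 at −0.24 ± 0.41 and −0.32 ± 0.41. The sensors and their processing genes had medians of 0.21 and 0.04 over 6 genes, and Eif2ak3 lay at 0.31 ± 0.26 and 0.33 ± 0.26.

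Targets of Atf4 and Ddit3 did not stand with the chaperones. Of 13 tested, 6 were higher and 7 lower after kd exosomes (median −0.02), and 5 were higher and 8 lower after wt exosomes (median −0.13), with 0 called. Cebpb lay at 0.40 ± 0.43 and 0.49 ± 0.43 and Phgdh at −0.10 ± 0.44 and −0.52 ± 0.44. The standard errors of Asns and Vldlr, 1.83 and 1.42 without the replicate block, were far larger than those of the chaperones. They also exceeded the difference of Hspa5, which was itself not called. Cytosolic and mitochondrial heat shock genes showed medians of 0.10 and 0.12 over 8 genes, with the mitochondrial chaperonin Hspe1 at 0.34 ± 0.18 and 0.16 ± 0.18. The plot of the lists shows these medians against all probes.

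**Figure D4:**
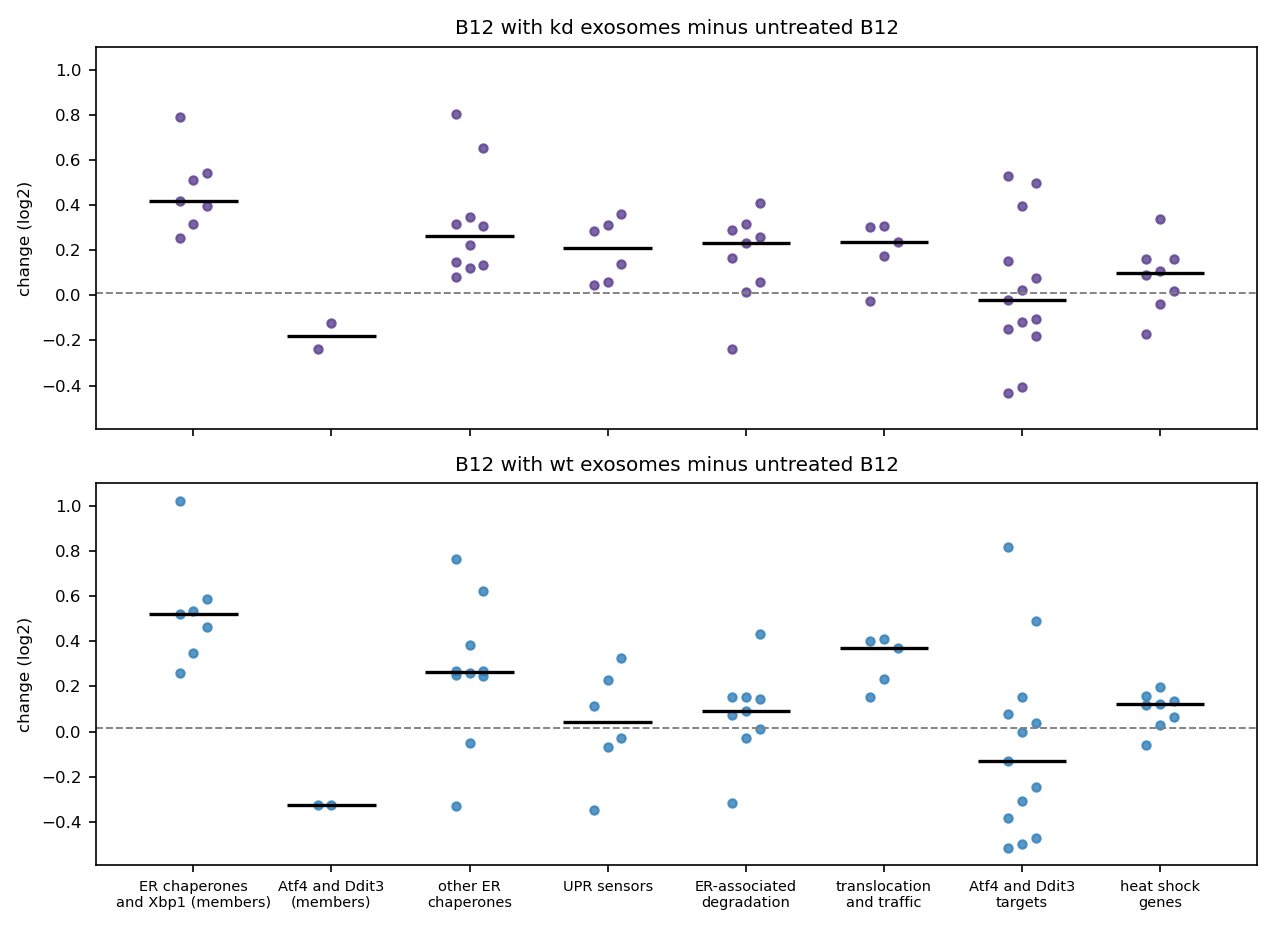
Difference between treated and untreated B12 cells (log2) for each measured gene of the described genes and of 6 related lists, for kd exosomes (above) and wt exosomes; black bars are medians and the dashed line is the median of all probes. The chaperone genes with Xbp1 lie above the dashed line, the other chaperones have medians of 0.27 and 0.26 with Canx and Fkbp2 below the line after wt exosomes, and Atf4 and Ddit3 targets lie on both sides of it.

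Across the 6 B12 arrays, the level of each gene was set against the mean of the other 8 after each was standardized. The correlation was 0.96 for Hspa5, 0.96 for Xbp1, 0.94 for Dnajb11, 0.93 for Creld2, 0.89 for Pdia3, 0.85 for Calr and 0.77 for Dnajb9, against −0.33 for Atf4 and −0.84 for Ddit3. Of 7957 other genes, those most like the mean of the 9 were Mpzl1, a cell surface glycoprotein (r = 0.998), Arglu1 (0.985), Manf (0.984), Cp, the copper protein ceruloplasmin (0.981), and Abcb1b, a drug efflux pump (0.976), and 90 genes reached 0.9. Mpzl1 lay at 0.60 and 0.61 and Cp at 1.34 and 1.39 after kd and wt exosomes. These values describe 6 arrays that share 2 replicate numbers and 3 treatments.

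B12 cells with kd exosomes were compared with B12 cells with wt exosomes to ask whether CD44v in the donor cells matters for the response. No difference was detectable for any of the 9 genes. The arrays of the 2 groups overlapped for all 9, the differences lay between −0.24 and 0.20, and their median was −0.0048, against 0.0010 for all probes. The largest were Creld2 at −0.24 (95% interval −1.42 to 0.95), Atf4 at 0.20 (−0.50 to 0.91) and Dnajb9 at −0.20 (−0.82 to 0.41). Hspa5 lay at 0.01 (−0.67 to 0.69) and Xbp1 at −0.07 (−0.53 to 0.39). With the replicate number as block the intervals were narrower, from −0.41 to 0.43 for Hspa5, from −0.43 to 0.30 for Xbp1 and from −0.84 to 0.37 for Creld2. That of Hspa5 was short of its 0.54 and 0.53 over untreated cells, which were themselves not called. Those of Xbp1 and Creld2 reached farther from 0 than their 0.40 and 0.79 after kd exosomes. A difference that was not detected does not show that the 2 exosome types act alike. Within number 1 the median was 0.07 and within number 2 −0.18. Limma called 0 of 11631 probes (0%), with 231 at an unadjusted p under 0.05. Of all probes, 11.2% had the kd arrays above the wt arrays and 9.32% below, 1.31% and 0.679% were higher and lower at an unadjusted p under 0.05 (1.91% and 1.44% with the replicate block), and 0 of the 9 genes were among them.

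Exosome RNA of the knockdown was set against that of unmodified cells to ask whether the exported RNA differs. With all 6 arrays, Xbp1, Ddit3 and Dnajb11 stood higher in kd exosomes and Atf4 lower, each without overlap between the groups, while Calr and Hspa5 lay lower on kd replicates 1 and 2 alone. Limma called 0 of 8699 probes (0%), with 1135 at an unadjusted p under 0.05. The members' median was −0.20, against −0.04 for all probes. Groups without overlap made up 6.43% of all probes in the higher direction and 11.5% in the lower one, against 3 and 1 of the 9 genes. At an unadjusted p under 0.05 stood 1 gene higher (Xbp1, 5.01% of probes) and 1 lower (Atf4, 8.04%). With the replicate block these were 0 higher (5.2%) and 1 lower (Calr, 7.23%). Within all 3 numbers 3 genes were higher (14.5% of probes) and 1 lower (19.6%). The exosome numbers were not read as pairs (r of −0.199 to 0.455), so the counts by number and with the block describe the labels only. The levels here are log2 values after normalization of the 6 exosome arrays.

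Xbp1 had 8.00, 7.87 and 7.76 in kd exosomes, against 7.53, 7.31 and 7.46 in wt exosomes. All kd arrays lay above all wt arrays, by 0.44 ± 0.18 on average (SE; limma adjusted p = 0.382). Ddit3 had 10.25, 9.72 and 9.64 in kd exosomes, against 9.60, 9.52 and 9.52 in wt exosomes, with kd replicate 1 far above the rest and the gap between the groups small. Its difference was 0.32 ± 0.19 (limma adjusted p = 0.455). Dnajb11 had 6.37, 6.15 and 6.36, against 6.12 for the highest wt array, and lay at 0.29 ± 0.24. Atf4 had 9.65, 9.30 and 9.86 in kd exosomes, against 10.16, 10.22 and 9.98 in wt exosomes, all kd arrays lower, by −0.52 ± 0.18 (limma adjusted p = 0.382). Calr had 9.02, 8.71 and 10.20 in kd exosomes, against 10.48, 9.71 and 10.12 in wt exosomes, and Hspa5 had 8.17, 7.84 and 9.04, against 9.14, 8.62 and 8.84. For both chaperones kd replicate 3 lay among the wt arrays and the groups overlapped, with differences of −0.79 ± 0.40 and −0.52 ± 0.32. Pdia3 had 4.70, 5.20 and 5.73 in kd exosomes, against 6.14, 5.27 and 4.84 in wt exosomes. Creld2 had 5.13, 5.60 and 4.70, against 5.38, 5.53 and 5.18, and Dnajb9 had 5.64, 5.62 and 4.50, against 4.92, 5.48 and 4.74, both lowest on kd replicate 3, where they were not detected. Pdia3, Creld2 and Dnajb9 lay at −0.20 ± 0.41, −0.22 ± 0.28 and 0.21 ± 0.37, and their groups overlapped. Their signal over background was at most 66.8 on any exosome array, so these sizes are uncertain.

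**Figure D5:**
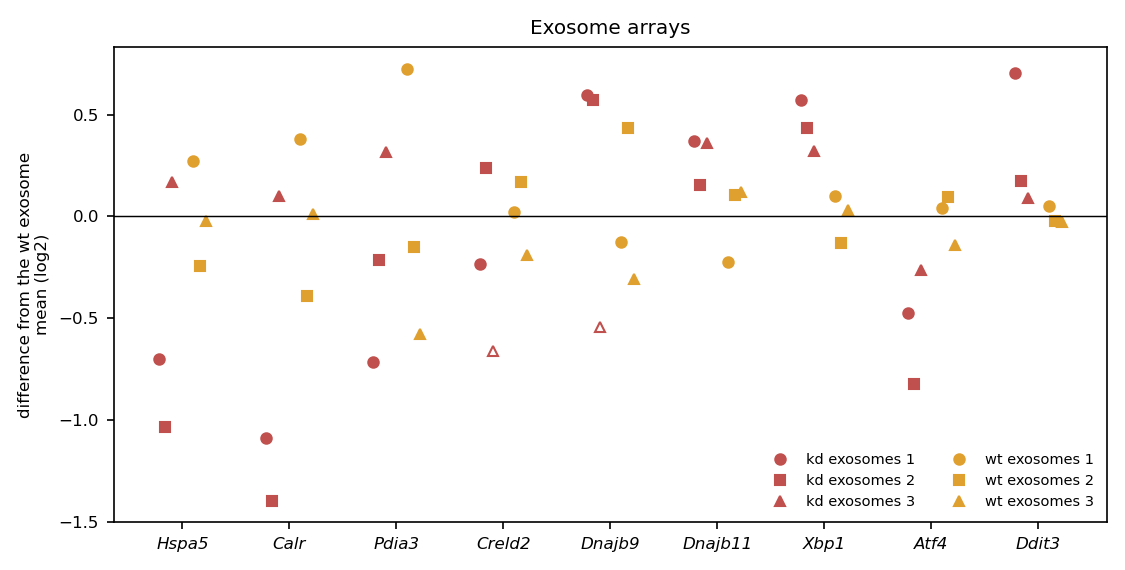
Each exosome array's distance from the mean of the 3 wt exosome arrays (log2), for the 9 genes; red points are kd and yellow points wt exosomes, and open points were not detected. Xbp1, Ddit3 and Dnajb11 have all red points above the yellow ones and Atf4 all below, while for Hspa5 and Calr the triangle of kd replicate 3 lies with the wt arrays.

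Kd replicate 3 decided how many genes were called. Without it, limma called 5 of the 9 genes: Calr at −1.24 ± 0.19 (adjusted p = 0.000946), Hspa5 at −0.87 ± 0.17 (0.00274) and Atf4 at −0.64 ± 0.12 (0.00288) lower, and Xbp1 at 0.51 ± 0.14 (0.0155) and Ddit3 at 0.43 ± 0.14 (0.033) higher. Of all 10169 probes 42.4% were called in the same fit, 17.3% lower and 25% higher, so a call here is common. The array was left out for its values, so these p-values are no test of the knockdown. Kd replicates 1 and 2 also had more signal over background than any wt array (299 and 244, against 108 to 173). In that fit the knockdown and the array signal cannot be told apart. With array weights, also estimated from the values, 6 of the 9 genes were called (the same 5 and Dnajb9), where 48.1% of all 8699 probes were. Under median scaling with all 6 arrays the median of all probes moved to 0.33, and Hspa5 and Atf4 turned to 0.16 and 0.14, still below that median, with Xbp1 and Ddit3 at 1.13 and 0.98.

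Other endoplasmic reticulum genes in the exosomes went both ways, and 0 were called. Of 8 other chaperones and folding enzymes, 6 were lower in kd exosomes (median −0.71), with Canx, the membrane partner of calreticulin, at −1.13 ± 0.28, P4hb at −0.72 ± 0.23, Ppib at −1.15 ± 0.44 and Manf at −0.69 ± 0.29 (limma adjusted p = 0.382 each). The sensor Eif2ak3 stood at 0.69 ± 0.24 and Herpud1 at 0.50 ± 0.22, both with all kd arrays above the wt arrays. Targets of Atf4 and Ddit3 divided evenly, 6 higher and 6 lower of 12, with Slc7a5 at 0.77 ± 0.23 and Ddit4, a growth inhibitor of stressed cells, at −1.34 ± 0.45. Of 4 translocation genes 3 were lower (median −0.28), of 6 degradation genes 4 were higher (median 0.21), of 4 sensor genes 2 were higher (median 0.14), and for 8 heat shock genes the median was −0.20, with Hspa8 at −0.70 ± 0.22 and the mitochondrial Hspa9 at 0.87 ± 0.31.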

How the data were processed

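RNA of 12 arrays was measured in 5 groups taken from the labels. The deposited non-normalized table gives, per the file headers, each probe's mean intensity on every array with a p-value. The deposited p-value was close to 1 at background and fell off above and below, so a probe counted as detected at a p-value under 0.05 with an intensity above background, the median of probes with a p-value above 0.9. The authors' value table, intensities normalized by a method not given in the sources used here, served as an alternative only. Of 23365 rows, 848 without an identifier and 571 with 280 repeated identifiers were left out, which left 21946 probes, 13129 of them with 1 gene symbol and 8817 with none. No other per-sample columns were present.

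Background was corrected with limma 3.58.1 (R 4.3.3; normexp, offset 16), followed by quantile normalization and log2. This was done for the 6 exosome arrays alone, for the 6 B12 arrays alone, and over all 12 arrays for levels and for wt exosomes against untreated B12 cells. A probe was kept if some group had it detected on all its arrays. The two-sided limma tests (lmFit, and eBayes with a trend) had 4, 3 and 7 residual degrees of freedom, and p-values were adjusted by Benjamini-Hochberg over all kept probes. Of several probes for a gene, the one with the highest mean stood for it. Figures used matplotlib 3.10.9 in Python 3.11.15, and the tests were tested on simulated data. The number of arrays limits the precision.

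The members and lists were chosen with earlier results of these data known. Named genes were the members, up to 4 genes per list and comparison with the smallest p, the 5 genes most like the members' mean, and Cd44. Asns and Vldlr, named for their standard errors, Phgdh and Atf5 in exosomes, and the markers of cell types printed singly were chosen after their values were seen, as were some list genes given for a second comparison. The alternatives were other scalings, background corrections, filters, the authors' values, array weights, the replicate block and each array left out. The labels do not say what a replicate number marks. Same-numbered B12 arrays deviated together from their group means (r of 0.773 to 0.799), so the numbers were read as pairs on the evidence of the data. In the exosomes they correlated at −0.199 to 0.455 and were not.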

Additional observations from a re-analysis of the deposited data

Results flagged for a closer look

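Atf4 and Ddit3 were picked out because every treated B12 array of replicate number 1 lay on the other side of its untreated array from those of number 2. The mean difference of Atf4 over both exosome types was 0.19 in number 1 and −0.64 in number 2, a gap of −0.836 (number 2 minus number 1, log2). For Ddit3 it was −0.84 in number 1 and 0.27 in number 2, a gap of 1.11. The difference between the numbers was not tested, and each number's 2 values share 1 untreated array. No group held enough arrays to test for a single outlying array.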

How the results depend on the processing

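Of 806 values of single genes under alternatives, 755 kept their direction and side of the threshold (or, where not tested, moved by less than the spread), 27 reversed, 15 became calls, 3 ceased to be calls and 6 moved. Some alternatives, such as the filters and the replicate block, leave a gene's difference as it was. In B12 cells no probe was called in any fit, so only a reversal counted there as a change. The count of values kept is therefore no measure of how firm the results are. In kd against wt exosomes, 0 members were called except with array weights (6, where 4181 of 8699 probes were called) and when an array was left out (0 to 5). The members' median was 0.162 under median scaling, −0.0595 with no background step, −0.107 at offset 50, −0.110 from the authors' values, 0.0305 with array weights, and −0.320 to 0.155 with an array left out. There Hspa5 and Atf4 turned to 0.162 and 0.139 under median scaling and Creld2 to 0.0305 with array weights. Leaving out an array gave −0.508 to 0.171 for Pdia3 and −0.429 to 0.00263 for Creld2.

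In B12 cells, 0 probes were called under every alternative. Leaving out an array gave, after wt exosomes, −0.0232 to 0.554 for Calr and −0.948 to 0.295 for Ddit3, and after kd exosomes −0.0266 to 0.552 for Calr, −0.859 to 0.384 for Ddit3 and −0.436 to 0.187 for Atf4. Between kd and wt exosomes in B12 cells the median was 0.0967 under median scaling, 0.00907 under cyclic loess and −0.160 to 0.039 with an array left out. Calr was 0.0989 and 0.00907 under these 2 scalings and Hspa5 −0.0251 with all 12 arrays in 1 fit. Leaving out an array gave −0.277 to 0.298 for Hspa5, −0.0230 to 0.345 for Pdia3, −0.0487 to 0.0390 for Calr, −0.160 to 0.0254 for Xbp1, −0.137 to 0.318 for Ddit3, −0.729 to 0.257 for Creld2 and −0.406 to 0.0679 for Dnajb11.

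In wt exosomes against untreated B12 cells the median was −3.38 under median scaling, −1.19 with no background step, −1.37 at offset 50, −1.32 from the authors' values, −2.28 as a share of the mean signal and −1.82 to −1.37 with an array left out. Atf4 was −1.24 and −0.149 under median scaling and as a share, and Ddit3 −0.98 under median scaling. Over all probes 2335 to 5942 were called there with an array left out. The cause of these shifts was not tested.

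With the replicate number as a block, the probes at an unadjusted p under 0.05 numbered 671 after kd exosomes, 650 after wt exosomes, 389 between them and 1081 in the exosomes, against 285, 326, 231 and 1135 without the block, and 0 were called in each. With 2 or 3 arrays a group, and low signal on the exosome arrays, small changes were not detectable.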
